A study of Mus musculus with 6 samples.

Results

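Schwann cells are the glia of peripheral nerves, and 7 genes known from them and from the myelin they make were followed in mouse epididymal white adipose tissue, the visceral fat pad beside the epididymis. The genes, taken as a named list, were Sox10, Ngfr, Gfra3, Pmp22, Mbp, Prx and Ncmap, out of 54356 annotated genes in the files. The list was chosen with earlier results of these data known. All 7 passed the filter on low counts, as did 17852 genes in all. The samples are 6 poly(A) RNA libraries from male wild type C57BL/6N mice aged 20 weeks, 1 mouse per library. Of these, 3 carry the label cold (mice 7, 12 and 16) and 3 the label ctrl (mice 5, 6 and 10). A single treatment text, given for all 6, speaks of single housing at 4 °C for 24 h, and the housing text gives 22 to 24 °C. The labels do not say how the ctrl mice were housed during those 24 h. The tissue was a whole fat pad. A level can therefore differ through the number of Schwann cells, the RNA in each, or other cells that make the gene. These cannot be told apart.

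Myelinating Schwann cells wrap large axons in compact myelin, whose membrane layers are held together by proteins such as PMP22 and MBP, and keep channels of noncompact myelin where cytoplasm remains. The transcription factor SOX10 is required for the Schwann cell lineage and, with EGR2, switches on myelin genes. Sympathetic fibres, which carry the cold signal to fat, are mostly unmyelinated and are bundled by nonmyelinating Schwann cells. Fat pads also hold small myelinated fibres.

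The libraries held 19735167 to 28608052 estimated counts, and the adipocyte genes Adipoq, Plin1, Lep, Fabp4, Cidec and Lipe together made up 27100 to 28800 CPM (counts scaled to a common library size) in the cold libraries and 23200 to 26500 CPM in the ctrl libraries. Fabp4 alone averaged 14900 CPM in cold and 11900 CPM in ctrl libraries. Of these 6 adipocyte genes, 2 had a log2 fold change above 0 (Fabp4 at 0.32 and Lep at 0.61). Lep was the 1 adipocyte gene called, higher in cold (adjusted p = 0.0439 by edgeR). The median of the 6 adipocyte genes was -0.06, with Plin1 at -0.23 and Lipe at -0.21. Of the 17852 genes tested, 2.89% were called at an adjusted p under 0.05 (quasi-likelihood test of edgeR, adjusted by the Benjamini-Hochberg method), 2.32% higher and 0.566% lower in cold, and the median log2 fold change was -0.013. Of the 7 genes, 1 was called, Ncmap, which was higher in cold, and the median of the 7 was -0.21. The groups overlapped in the other 6 genes, while 23.8% of all genes tested had no overlap between groups. These counts move with the libraries included: no gene was called without cold 12, ctrl 6 or ctrl 10 (smallest adjusted p 0.0562, 0.0589 and 0.0947, where 2546, 3071 and 2835 genes had an unadjusted p under 0.05), and 3 without cold 16. Without cold 7, 929 were called higher and 161 lower, and without ctrl 5, 648 and 47, against 415 and 101 with all libraries.

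**Figure D1:**
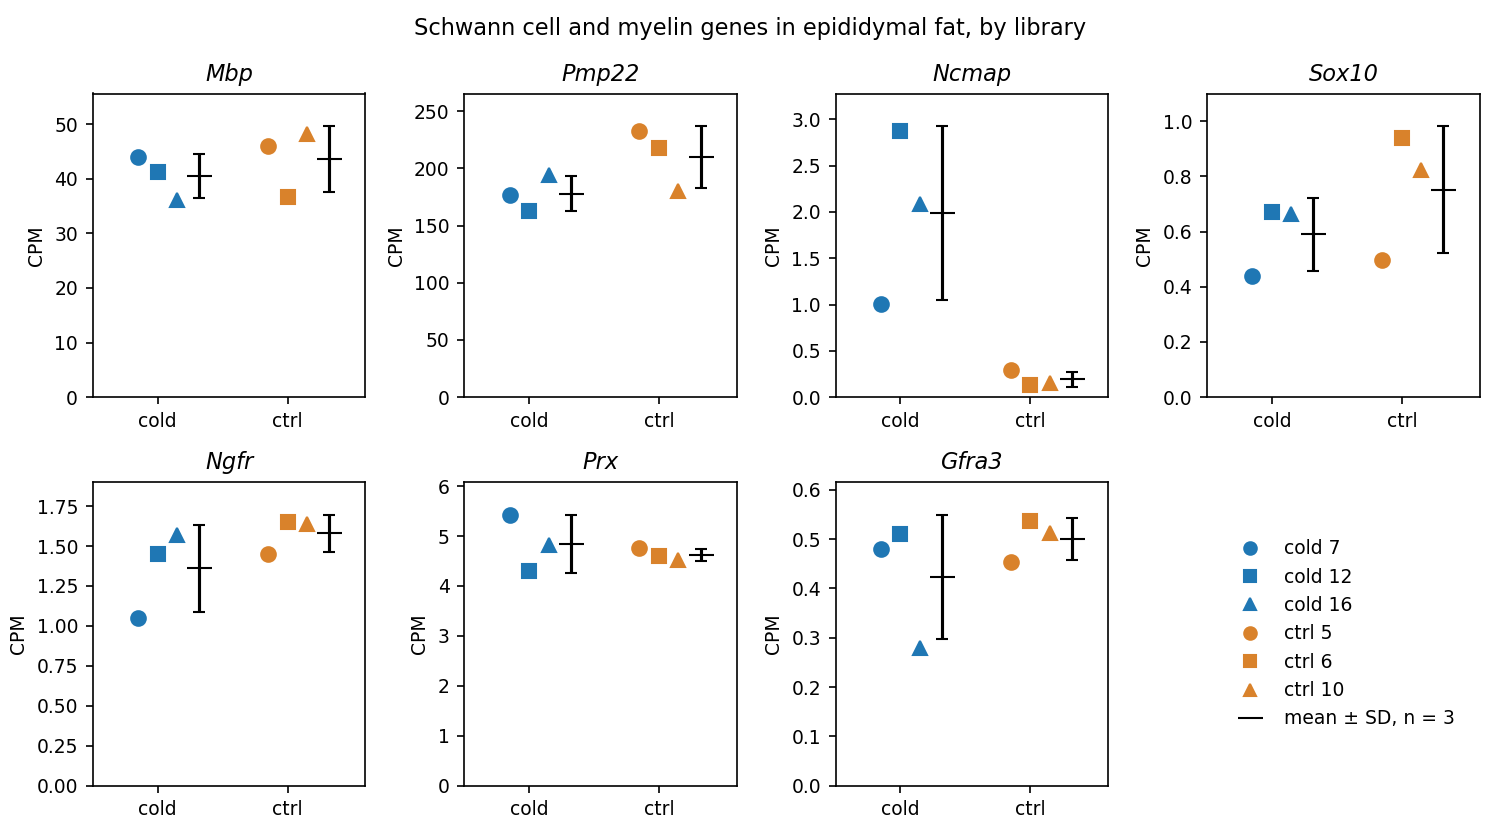
CPM (y axis, from 0, a scale of its own in each panel) of the 7 genes in the 3 cold and the 3 ctrl libraries, with 1 symbol per mouse and the mean ± SD of each group in black. Ncmap lay at 1.01 to 2.87 CPM in cold and at 0.134 to 0.289 CPM in ctrl libraries; in the other panels the groups overlap.

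Levels per transcript length were compared with the deposited TPM (scaled for transcript length and depth), summed per gene. Over all 6 libraries Pmp22 stood at 190.0 ± 26.1 TPM, Mbp at 15.2 ± 1.98 TPM and Prx at 1.32 ± 0.0891 TPM (SD, n = 6). Ncmap followed at 1.19 ± 1.23, Ngfr at 0.614 ± 0.0955, Sox10 at 0.385 ± 0.174 and Gfra3 at 0.356 ± 0.075 TPM (SD, n = 6). Pmp22 was thus 534-fold above Gfra3, and neither Pmp22 nor Mbp came within the range of a neighbour in this order. Prx and Ncmap, Ncmap and Ngfr, Ngfr and Sox10, and Sox10 and Gfra3 were neighbours whose levels did not differ beyond their spread. Other genes known from Schwann cells were also detected in every library, with means of 1.19 TPM for S100b and 0.434 TPM for Cdh19. Which cells of the fat pad made them was not tested. The place of Ncmap in this order differed by group. It averaged 2.13 TPM in cold libraries, next after Pmp22 and Mbp, and 0.249 TPM in ctrl libraries, the lowest mean of the 7 and below Gfra3 at 0.387 TPM, with overlap between these ctrl values. Ncmap exceeded Prx in cold 12 and cold 16 and lay below it in cold 7 and in every ctrl library.

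The regulator Sox10 (chromosome 15, 79154908 to 79165240, GRCm38) had 10, 17 and 19 counts in cold 7, cold 12 and cold 16, against 12, 21 and 16 in ctrl 5, ctrl 6 and ctrl 10. The lowest level was in cold 7 and the highest in ctrl 6, and the groups overlapped. Scaled to depth, it averaged 0.590 ± 0.132 CPM in cold and 0.752 ± 0.230 CPM in ctrl libraries (SD, n = 3 each). The log2 fold change was -0.33 (adjusted p = 0.731), and its 95% interval of -1.21 to 0.54 corresponds to 0.432 to 1.46 times the ctrl level.

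Ngfr encodes the p75 neurotrophin receptor, which marks immature and nonmyelinating Schwann cells and is also found on some stromal cells and neurons. Ngfr (chromosome 11, 95568818 to 95587735) had 1.05, 1.45 and 1.57 CPM in cold 7, cold 12 and cold 16, against 1.45, 1.65 and 1.64 CPM in ctrl 5, ctrl 6 and ctrl 10. Cold 7 was lowest, with 24 counts, and the groups overlapped. The log2 fold change was -0.21 (95% interval -0.84 to 0.41, adjusted p = 0.764). Gfra3, the receptor subunit for artemin that signals with RET, is known from sensory and sympathetic neurons and from Schwann cell precursors. Gfra3 (chromosome 18, 34689898 to 34720387) had 11, 13 and 8 counts in cold 7, cold 12 and cold 16, and 11, 12 and 10 in ctrl 5, ctrl 6 and ctrl 10. Cold 16 was lowest, the groups overlapped, and its log2 fold change of -0.25 had an interval of -1.16 to 0.66 (adjusted p = 0.813).

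Pmp22 encodes a tetraspan protein of compact myelin that is also made by fibroblasts and many other cells outside nerve. Pmp22 (chromosome 11, 63128982 to 63159547) had 177, 163 and 194 CPM in cold 7, cold 12 and cold 16, against 233, 218 and 180.0 CPM in ctrl 5, ctrl 6 and ctrl 10. The highest levels were in ctrl 5 and ctrl 6, while ctrl 10 lay among the cold libraries. Its log2 fold change was -0.24 (SE 0.11, 95% interval -0.49 to 0.01, adjusted p = 0.316). Prx encodes periaxin, which links the Schwann cell membrane to the basal lamina through DRP2 and keeps the noncompact myelin channels open. Prx (chromosome 7, 27499324 to 27520214) had 5.43, 4.29 and 4.82 CPM in cold 7, cold 12 and cold 16, and 4.75, 4.60 and 4.52 CPM in ctrl 5, ctrl 6 and ctrl 10. The ctrl values fell within the range of the cold ones, and the log2 fold change of 0.07 had an interval of -0.32 to 0.45 (adjusted p = 0.894), with a value of -0.025 without cold 7. An antisense gene, Gm15541, overlaps 5405 bases of Prx and had 10 to 39 counts in cold and 17 to 26 in ctrl libraries; the libraries were made strand-specific, but whether the counting used strand is not stated.

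Mbp encodes myelin basic protein, which compacts the cytoplasmic faces of myelin, and its locus is also known for an upstream start that gives the longer golli transcripts, found in cells of the immune system as well as in the nervous system. Mbp (chromosome 18, 82475146 to 82585637) had 44.0, 41.3 and 36.2 CPM in cold 7, cold 12 and cold 16, against 46.0, 36.7 and 48.2 CPM in ctrl 5, ctrl 6 and ctrl 10, a log2 fold change of -0.11 (95% interval -0.38 to 0.17, adjusted p = 0.722). Most of these reads were assigned to transcripts that begin at the upstream start. The 4 transcripts beginning within 224 bases of the annotated gene start took 91.7, 94.0 and 90.8% of the Mbp counts in cold 7, cold 12 and cold 16, and 91.3, 93.3 and 92.1% in ctrl 5, ctrl 6 and ctrl 10. A single one of them, Mbp-205 (4797 bases), carried 908.9, 962.6 and 928.7 estimated counts in cold libraries and 1003.5, 745.5 and 854 in ctrl libraries. The 11 transcripts that begin 79324 to 79434 bases further downstream, where classic myelin Mbp starts, took 6.03 to 9.22% in cold and 6.44 to 8.73% in ctrl libraries. Per length, their levels were 2.85, 1.97 and 2.49 TPM in cold 7, cold 12 and cold 16, and 3.17, 1.73 and 2.91 TPM in ctrl 5, ctrl 6 and ctrl 10. This was a larger share than that of counts, 13.1 to 19.7% of the Mbp TPM in cold and 13.2 to 18.6% in ctrl libraries. The groups overlapped in the level of both starts. The 5 lymphocyte markers measured beside it (Cd3e, Cd3d, Cd79a, Ms4a1 and Nkg7) summed to 5.34 to 8.53 CPM in cold and 7.29 to 12.2 CPM in ctrl libraries, and their part in the Mbp level was not tested.

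**Figure D2:**
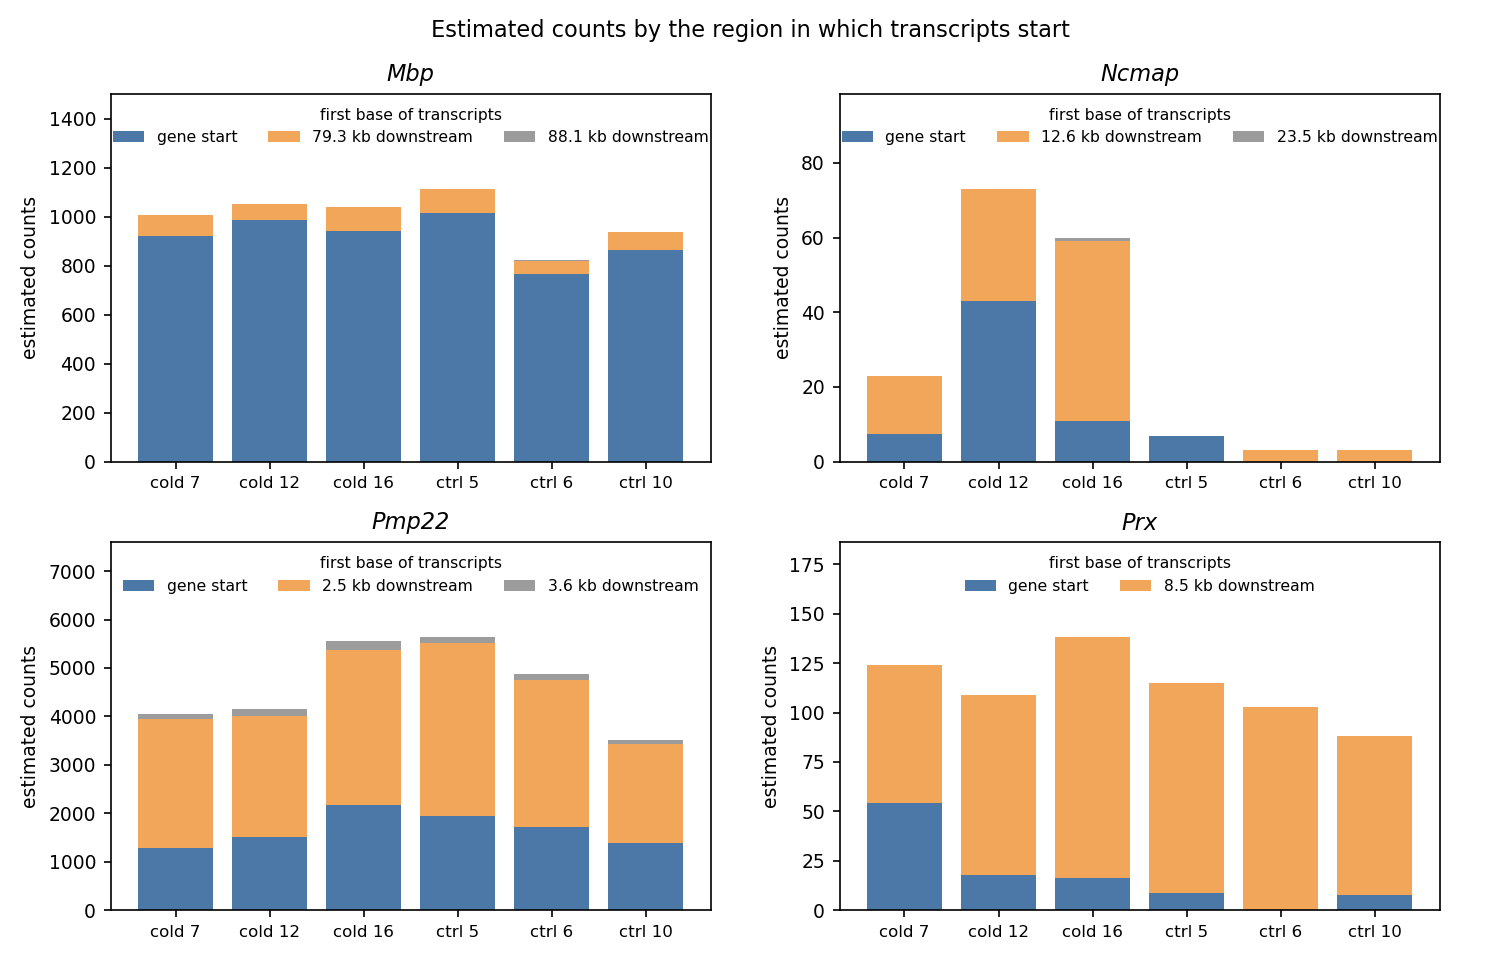
Estimated counts (y axis, from 0) of Mbp, Ncmap, Pmp22 and Prx in each of the 3 cold and 3 ctrl libraries, stacked by the region in which the assigned transcripts begin. For Mbp the gene start took 90.8 to 94.0% of the counts in every library, and for Ncmap both main starts carried counts in every cold library.

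Start regions were also read for Pmp22 and Prx. Pmp22 transcripts from the gene start took 31.8, 36.6 and 39.0% of counts in cold 7, cold 12 and cold 16, and 34.6, 35.3 and 39.3% in ctrl 5, ctrl 6 and ctrl 10. Those from the start 2530 bases downstream took 57.9 to 65.8% in cold and 58.4 to 63.3% in ctrl libraries, so that both starts carried counts in every library and the groups overlapped. For Prx, the upstream start took 43.6% of counts in cold 7, against 16.5% in cold 12, 11.8% in cold 16 and at most 8.98% in the ctrl libraries. In cold 7 this was 54.1 estimated counts, the highest of any library. In share, estimated counts and TPM of this start, every cold library lay above every ctrl library. All such shares are Salmon's division of reads among overlapping transcripts, whose own uncertainty is not known here, and no test was made on them.

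Ncmap encodes a small membrane protein of noncompact peripheral myelin, and it was the 1 of the 7 genes that was called. Ncmap (chromosome 4, 135369576 to 135398227) had 23, 73 and 60 counts in cold 7, cold 12 and cold 16, against 7, 3 and 3 in ctrl 5, ctrl 6 and ctrl 10. The lowest cold library was thus above the highest ctrl library, with cold 7 nearest to ctrl 5. It averaged 1.99 ± 0.936 CPM in cold and 0.192 ± 0.0843 CPM in ctrl libraries (SD, n = 3 each). The fitted log2 fold change was 3.32 (SE 0.52, adjusted p = 0.0283 by edgeR), a 9.98-fold difference with a 95% interval of 4.37 to 22.8. The 156 counts in cold and 13 in ctrl give a ratio of 10.3 after scaling to depth, with an exact binomial 95% interval of 5.85 to 19.8 that covers counting error only. Without cold 12, cold 16, ctrl 6 or ctrl 10 the gene missed the threshold (adjusted p = 0.132, 0.0668, 0.115 and 0.119), at log2 fold changes of 2.98 to 3.28. It passed without cold 7, without ctrl 5 and without both (adjusted p = 0.00553, 0.0298 and 0.00178).

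Both main Ncmap start regions carried counts in the cold, and a further one, 23539 bases downstream, had 1.0 estimated count in cold 16 alone. Transcripts beginning at the gene start had 7.3, 42.9 and 10.9 estimated counts in cold 7, cold 12 and cold 16, and 7.0, 0 and 0 in ctrl 5, ctrl 6 and ctrl 10. Those beginning 12555 to 12582 bases downstream had 15.7, 30.1 and 48.1 in cold 7, cold 12 and cold 16, and 0, 3.0 and 3.0 in ctrl 5, ctrl 6 and ctrl 10. Cold 12 drew more from the upstream start, and cold 7 and cold 16 drew more from the downstream one. The promoters of these starts and of the main Pmp22 starts are printed to show where these starts lie. They come from RefSeq (GRCm38.p6), cover 250 bases before and 50 after the start, and are shown 5′ to 3′ on the gene's strand with the transcribed bases in capitals. The windows are chr4:135398178-135398477 and chr4:135385623-135385922 (minus strand) for Ncmap, and chr11:63128732-63129031 and chr11:63131207-63131506 (plus strand) for Pmp22, whose downstream start is 63131457 in RefSeq and 63131512 in GENCODE, so that the counted start lies just outside its window.
Ncmap upstream start: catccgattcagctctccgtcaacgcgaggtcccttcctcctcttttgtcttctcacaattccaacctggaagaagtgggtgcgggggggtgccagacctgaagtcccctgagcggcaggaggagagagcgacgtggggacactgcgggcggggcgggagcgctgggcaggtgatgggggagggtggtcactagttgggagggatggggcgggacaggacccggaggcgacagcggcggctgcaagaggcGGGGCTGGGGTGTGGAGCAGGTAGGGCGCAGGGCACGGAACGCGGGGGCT
Ncmap downstream start: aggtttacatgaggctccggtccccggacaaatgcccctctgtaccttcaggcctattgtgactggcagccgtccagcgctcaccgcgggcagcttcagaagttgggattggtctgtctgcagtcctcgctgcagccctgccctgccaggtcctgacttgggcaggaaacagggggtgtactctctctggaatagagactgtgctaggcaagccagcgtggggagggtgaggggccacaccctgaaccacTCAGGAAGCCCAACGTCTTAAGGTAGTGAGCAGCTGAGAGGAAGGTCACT
Pmp22 upstream start: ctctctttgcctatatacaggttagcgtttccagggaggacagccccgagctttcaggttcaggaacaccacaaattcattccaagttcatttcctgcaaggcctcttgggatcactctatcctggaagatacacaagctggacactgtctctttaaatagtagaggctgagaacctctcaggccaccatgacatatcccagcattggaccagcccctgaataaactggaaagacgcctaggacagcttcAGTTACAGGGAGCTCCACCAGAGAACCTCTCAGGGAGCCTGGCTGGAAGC
Pmp22 downstream start: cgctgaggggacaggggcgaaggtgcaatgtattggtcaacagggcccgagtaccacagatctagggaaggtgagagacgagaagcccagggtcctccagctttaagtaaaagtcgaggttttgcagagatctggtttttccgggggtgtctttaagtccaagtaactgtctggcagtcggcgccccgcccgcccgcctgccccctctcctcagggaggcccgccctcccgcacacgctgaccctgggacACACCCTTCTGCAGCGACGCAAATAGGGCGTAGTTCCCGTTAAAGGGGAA
The upstream Ncmap window held 67.7% G and C with 22 CG dinucleotides, and the downstream one 59.7% with 9. The upstream Pmp22 window held 50.7% with 3, and the downstream one 60.0% with 18. None of the 4 windows contains the SOX core letters ACAAAG or ACAATG, the EGR letters GTGGGCG or the TATA letters TATAAA on either strand, which occur in 28.6, 7.97 and 13.6% of 32851 such RefSeq windows.

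Summed markers of epithelial and ciliated cells were, like Ncmap, higher in every cold library than in any ctrl library. The 8 epithelial markers (Epcam, Cdh1, Krt8, Krt18, Krt19, Cldn4, Cldn7 and Elf3) summed to 140.0, 249 and 227 CPM in cold 7, cold 12 and cold 16, against 61.0, 16.8 and 37.3 CPM in ctrl 5, ctrl 6 and ctrl 10. Of these 8, 2 were called higher in cold (Cdh1 and Cldn4), and none was at 0 in all libraries. The groups did not overlap in 7 of them, while Krt19 overlapped, with its highest level in cold 7 (log2 fold change 0.60, adjusted p = 0.560 by edgeR). The 7 motile cilium markers with an entry (Foxj1, Dnah5, Dnah9, Ccdc39, Rsph1, Tekt1 and Hydin) summed to 50.6, 155 and 129 CPM in cold 7, cold 12 and cold 16, against 23.0, 5.81 and 3.18 CPM in ctrl 5, ctrl 6 and ctrl 10, with 3 called higher (Ccdc39, Rsph1 and Tekt1). Cold 12, then cold 16, cold 7 and ctrl 5 was the descending order of Ncmap and of both sums, but not of each marker, and ctrl 6 and ctrl 10 were ordered differently in the cilium sum and in Ncmap. In a search of 11155 genes averaging 5 CPM or more, the profiles nearest to Ncmap over the 6 libraries were those of Hpn and Igsf11, at root mean square differences of 0.14 and 0.20 on the centred log2 CPM scale. Hpn, a membrane serine protease of epithelia, had 9.37, 26.2 and 22.3 CPM in cold 7, cold 12 and cold 16, against 3.51, 2.41 and 2.11 CPM in ctrl 5, ctrl 6 and ctrl 10. The part of epithelial RNA in the Ncmap difference was not tested.

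**Figure D3:**
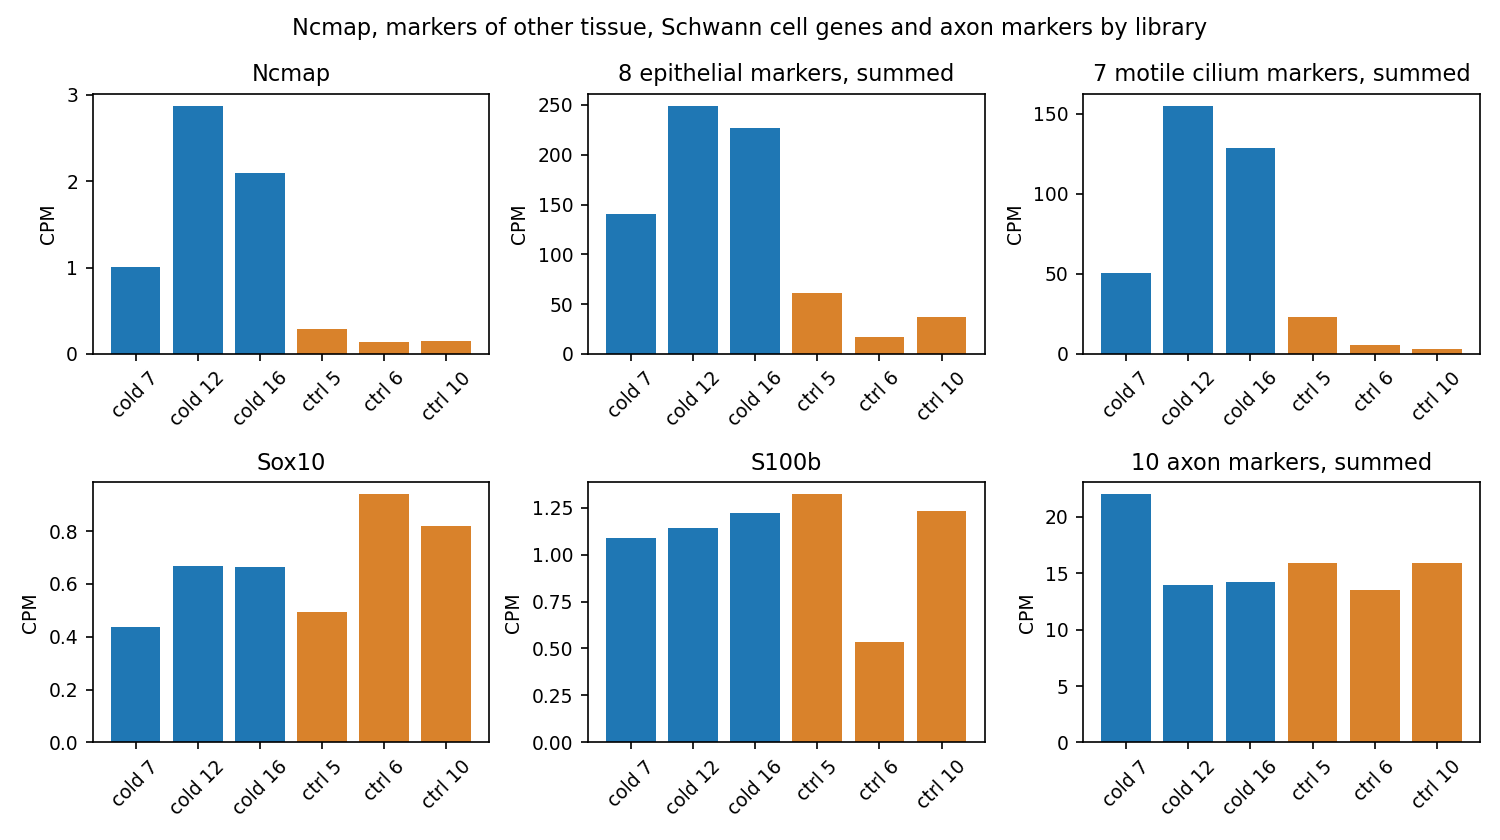
CPM (y axis, from 0) in the 3 cold and 3 ctrl libraries for Ncmap, for the summed epithelial, motile cilium and axon markers, and for the Schwann cell genes Sox10 and S100b. Ncmap and the epithelial and cilium sums are highest in cold 12 and lowest in ctrl 6 or ctrl 10, whereas Sox10, S100b and the axon sum overlap between groups. Erbb3, also known from Schwann cells and not drawn, was higher in every cold library than in any ctrl library (log2 fold change 2.03).

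The profile of Ncmap was set beside those of the other 6 genes. Over the 6 libraries, its centred log2 CPM differed from theirs by 1.5 to 1.66 (root mean square). Those 6 differed from each other by 0.18 (Mbp and Prx) to 0.42 (Mbp and Sox10). Ncmap deviated from its own mean by 1.5, and the other 6 genes from theirs by 0.1 to 0.34. The distances of Ncmap thus restate its fold change and add no separate result. The nearest profiles among all genes searched were Ccdc8 and Tek for Mbp and Prkcsh and Coa3 for Prx (0.03 each), Vash1 and Nudt18 for Pmp22 (0.05 each) and Rasa4 and Cox8a for Ngfr (0.03 and 0.05). For Sox10 they were Nedd9 and Gfod2 (0.09 and 0.13), and for Gfra3 they were Ankrd52 and Irx3 (0.09 each). With 6 libraries and 11155 genes, such likeness is a description only.

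Other genes of Schwann cells and of their signals were read from 7 lists with 55 genes, of which 38 were tested. These lists, too, were chosen with earlier results of these data known. Of these 38, 4 were called higher in cold and none lower, beside 2.89% called of all genes, and their median log2 fold change was 0.05. At an unadjusted p under 0.05 by edgeR, 8 were higher and 2 lower (Scn7a and Ntrk2), beside 10.6% higher and 6.99% lower of all genes, and DESeq2 put Scn7a past the threshold (adjusted p = 0.00856). Without cold 12, cold 16, ctrl 6 or ctrl 10 none of the 4 passed, at adjusted p of 0.0575 to 0.145 by edgeR. All 4, like Ncmap, had every cold library above every ctrl library with cold 7 lowest of the cold and ctrl 5 highest of the ctrl libraries. That order, looked at because earlier results had shown it, held in 8 of the 45 tested genes of the 7 lists and the 7 members (17.8%), and in 4.98% of all genes tested and 60.7% of the genes called higher. The 8 genes were Ncmap, Pllp, Erbb3, Nrtn, Gfra1, Mal, Gjb1 and Sorcs2. It is also the order of the epithelial and cilium marker sums by group, whose part in these list results was not tested.

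In the list of compact myelin and myelin lipid genes, which is incomplete here, 2 of 5 were tested and 1 was called higher. This was Pllp, plasmolipin, a tetraspan protein of myelin and of apical epithelial membranes, with 10.6, 16.7 and 17.2 CPM in cold 7, cold 12 and cold 16, against 7.89, 6.66 and 7.29 CPM in ctrl 5, ctrl 6 and ctrl 10 (log2 fold change 1.03, adjusted p = 0.0365). With an offset for transcript length it missed the threshold (adjusted p = 0.151), and in TPM the groups overlapped, at 11.6 in cold 7 and 12.2 in ctrl 5. Mal, a lipid raft protein of myelin and epithelia, stood at 2.26 (adjusted p = 0.0638).

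None of the 6 tested of 8 noncompact myelin, paranode and node genes was called (median 0.09). The gap junction gene Gjb1, connexin 32 of Schwann cells and of epithelia, had 13, 41 and 47 counts in cold 7, cold 12 and cold 16, against 7, 0 and 0 in ctrl 5, ctrl 6 and ctrl 10 (log2 fold change 3.56, interval 1.34 to 5.78, adjusted p = 0.0984). Without ctrl 5, where the other ctrl libraries have no count, the fitted value was 7.93 and is not a bound. The periaxin partner Drp2 stood at 0.34, the myelin-associated glycoprotein Mag at -0.15 and the axon adhesion gene Nfasc at -0.51. Among Schwann cell transcription factors none of 5 tested of 9 was called (median -0.06), with the myelin regulator Egr2 at -0.06, its corepressors Nab1 and Nab2 at 0.09 and -0.16, and Tfap2a at 0.77. The other 4, Pou3f1, Pou3f2, Sox2 and Foxd3, did not pass the filter on low counts.

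Of the axon to Schwann cell signals and receptors, 7 of 8 were tested and 1 was called higher (median 0.04). Erbb3, the neuregulin receptor that Schwann cells need for survival and that many epithelia also carry, had 8.14, 17.4 and 13.0 CPM in cold 7, cold 12 and cold 16, against 4.01, 2.10 and 3.29 CPM in ctrl 5, ctrl 6 and ctrl 10. Its log2 fold change was 2.03 (SE 0.34, adjusted p = 0.0342). Its partner Erbb2 stood at 0.04, the hedgehog receptor Ptch1 at 0.26, the Schwann cell secreted protein Lgi4 at 0.04 and the Schwann cell hedgehog ligand Dhh at 0.06. None of the 6 tested of 9 nonmyelinating and immature Schwann cell genes was called (median -0.04). The sodium channel Scn7a, known from nonmyelinating Schwann cells, stood at -0.30 with no overlap between groups (interval -0.47 to -0.13, adjusted p = 0.0702), Matn2 at -0.25, the adhesion gene Ncam1 at 0.44, S100b at 0.16 and Cdh19 at 0.18. Scn7a averaged 33.0 TPM and Matn2 37.2 TPM over the 6 libraries, against 1.19 TPM for S100b and 0.434 TPM for Cdh19. The part of other cells in the Scn7a and Matn2 levels was not tested.

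Ligands and receptors related to Ngfr and Gfra3 were then compared. All 7 neurotrophins and receptors analysed here were tested and none was called (median -0.17). The receptor Ntrk2 stood at -0.22, Sort1, a coreceptor of Ngfr, at -0.19, and the sorting receptor Sorcs2 at 2.89 (interval 0.94 to 4.85, adjusted p = 0.133). Without ctrl 5 the Sorcs2 value was 4.04 (adjusted p = 0.0377). Of the 9 GDNF family ligands and receptors, 5 were tested and 2 were called higher (median 0.58). The ligand Nrtn, neurturin, had 3.63, 7.55 and 9.81 CPM in cold 7, cold 12 and cold 16, against 1.28, 0.760 and 0.616 CPM in ctrl 5, ctrl 6 and ctrl 10 (log2 fold change 2.96, adjusted p = 0.0283). The GDNF receptor Gfra1 had 1.97, 3.19 and 3.07 CPM in cold 7, cold 12 and cold 16, against 0.867, 0.358 and 0.308 CPM in ctrl 5, ctrl 6 and ctrl 10 (2.39, adjusted p = 0.0340), with a log2 fold change of 3.03 without ctrl 5. The shared receptor Ret stood at 0.58 (interval 0.13 to 1.04, adjusted p = 0.169), Gfra2 at -0.15 and Gfra4 at -0.03. Artn, the ligand of Gfra3, had 7, 8 and 12 counts in cold 7, cold 12 and cold 16, and 7, 1 and 7 in ctrl 5, ctrl 6 and ctrl 10, and did not pass the filter. Gfral was at 0 in all libraries.

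**Figure D4:**
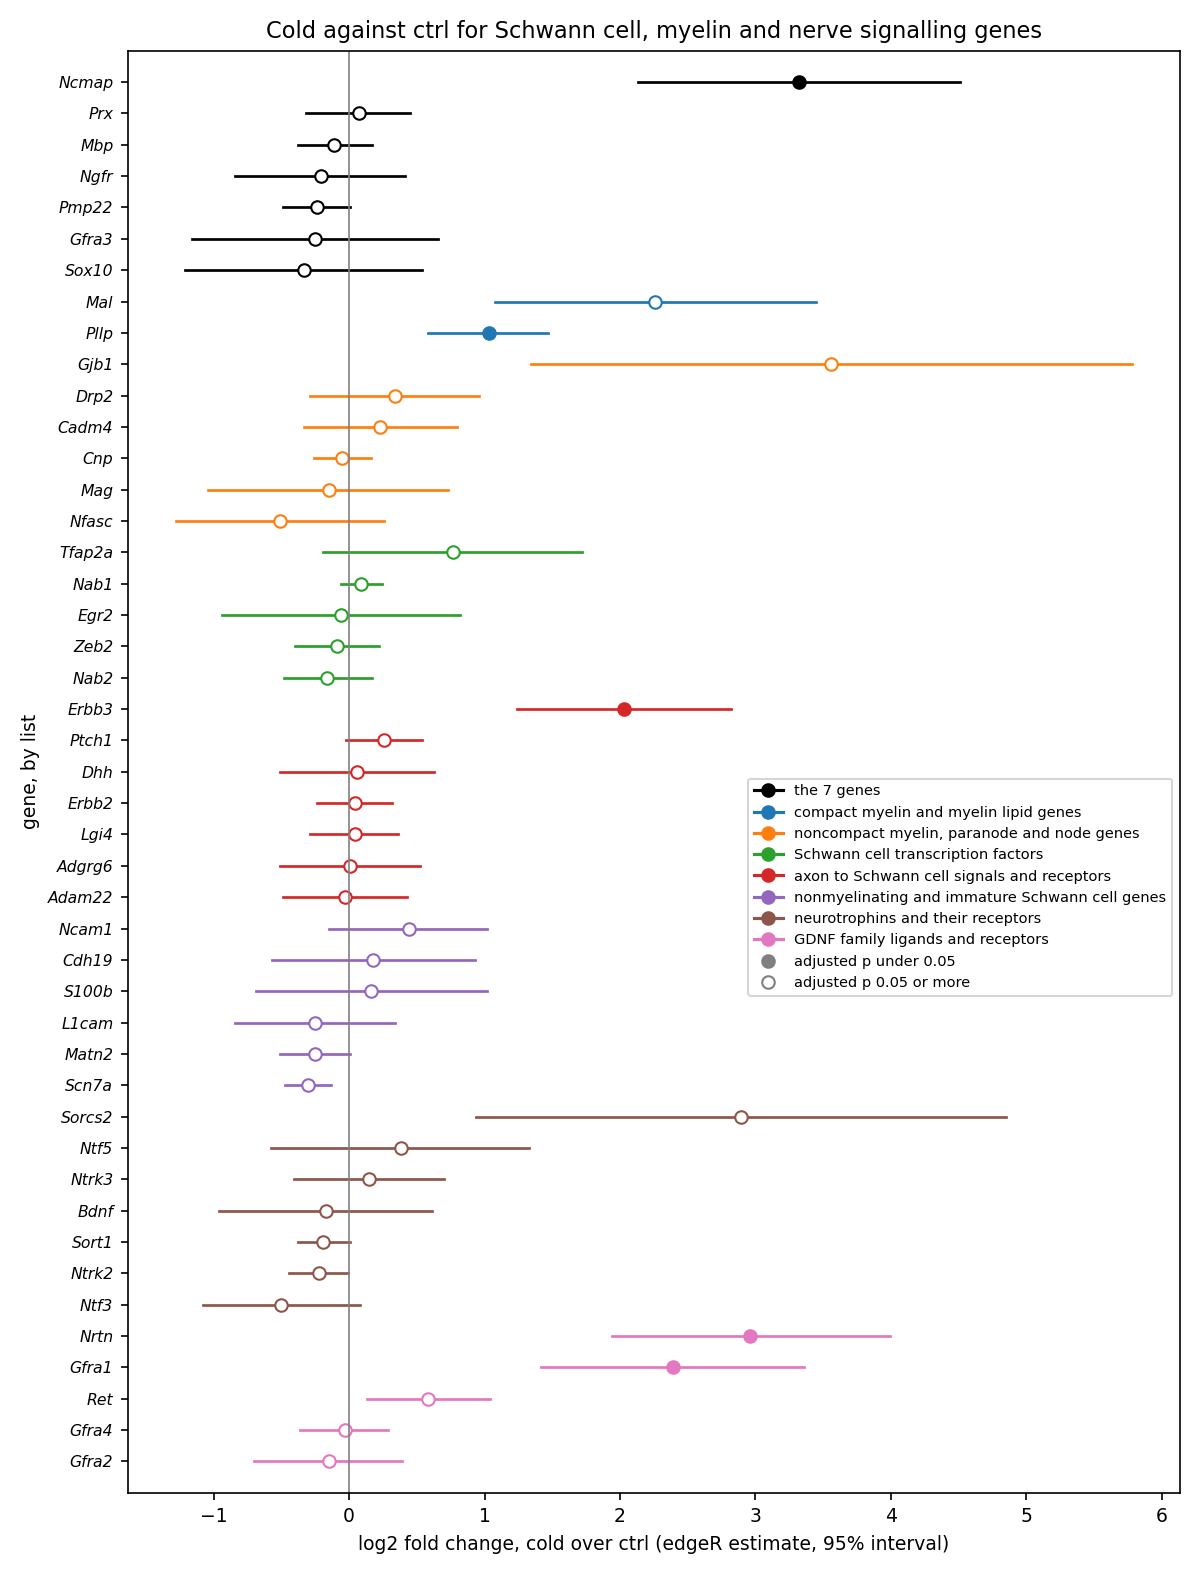
Log2 fold change, cold over ctrl, with its 95% interval (x axis) for the 7 genes and the 38 tested genes of the 7 lists, by list, with filled points for genes called at an adjusted p under 0.05. Ncmap, Pllp, Erbb3, Nrtn and Gfra1 are filled, and the other 6 of the 7 genes lie between -0.33 and 0.07.

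The axon markers and other cell types that carry these genes were read last. The 10 axon markers summed to 22.0, 14.0 and 14.2 CPM in cold 7, cold 12 and cold 16, and to 15.9, 13.5 and 15.9 CPM in ctrl 5, ctrl 6 and ctrl 10, with none of the 3 tested called. The noradrenaline synthesis genes of sympathetic axons in that list did not pass the filter: Th had 3, 2 and 5 counts in cold 7, cold 12 and cold 16, against 1, 0 and 0 in ctrl 5, ctrl 6 and ctrl 10. Dbh had 2, 5 and 8 counts in cold 7, cold 12 and cold 16, against 0 in each ctrl library. The counts of Th and Dbh did not overlap between groups, while 23.8% of all genes tested had no overlap and the other axon markers all overlapped. That share covers tested genes only, and so neither Th nor Dbh. In a single library a count of 0 allows up to 3 counts, above the lowest cold count of 2 in both genes. Neither gene was tested, so whether the groups differ was not decided. Oligodendrocytes, the central glia that also make Mbp and Mag, had few of their own markers: their 6, with Mag, summed to 0.943 to 1.58 CPM in cold and 1.21 to 1.61 CPM in ctrl libraries, and Olig2 had no count in 5 of the 6 libraries. The 5 markers of melanocytes, which also need SOX10, summed to 4.36 to 4.55 CPM in cold and 3.59 to 5.86 CPM in ctrl libraries. Markers of fibroblasts, which also make Pmp22, summed to 1550 to 2300 CPM in cold and 1440 to 1880 CPM in ctrl libraries with none of 6 called. Those of smooth muscle and pericytes summed to 772 to 906 CPM in cold and 966 to 1020 CPM in ctrl libraries, with Notch3 called lower. Rgs5 alone averaged 330 CPM in cold and 493 CPM in ctrl libraries. Of these 6 markers, 3 had a log2 fold change above 0 (Acta2, Tagln and Cnn1), and the median was 0.1. Endothelial markers summed to 1000 to 1200 CPM in cold and 1240 to 1290 CPM in ctrl libraries. None of these 6 was called (smallest adjusted p 0.08 by edgeR), at log2 fold changes of -0.37 to -0.03. The part of these cell types in the levels of Pmp22 and Ngfr was not tested.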

How the data were processed

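Poly(A) RNA of 6 fat pads was sequenced as strand-specific pairs of 50 nt reads, per the labels' protocols. The submitters' processing notes name Salmon, cutadapt, bcl2fastq and the build GRCm38, without versions. The authors deposited, per transcript, estimated counts, TPM and an effective length, per the file headers. Of 140658 transcripts 140137 matched GENCODE M21 (GRCm38); the rest, with at most 0.394% of a library's counts, were left out. Estimated counts were summed per gene, rounded, filtered (filterByExpr, minimum count 10, minimum total 15), scaled by TMM and tested two-sided with edgeR 4.0.16 (glmQLFit, robust) in R 4.3.3. Intervals use the quasi-likelihood standard error. Log2 CPM for profiles used a prior count of 2. Named genes were the 7 members, the called or lowest-p members of each list, and the 2 nearest profiles per member; other list genes without a call were named as well, after their values were seen. The members and lists were chosen with earlier results of these data known. DESeq2 1.42.0, RLE scaling, no filter, a length offset and left-out libraries were alternatives. The fit was tested on simulated data, where fold changes were recovered without visible bias but more of the calls were false than the adjusted p threshold allows, so adjusted p just under 0.05 should be read with caution. All replicate pairs differed by more than sampling noise (chi-square divided by its degrees of freedom, 11.1 to 29.8), and mouse numbers mark separate animals. A count of 0 allows up to 3 counts, or 0.105 to 0.154 CPM. An exact permutation test of 3 against 3 libraries cannot go below p = 0.1. Dnai1 and some other genes of the lists are not reported here, so counts over the lists cover the remaining genes.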

Additional observations from a re-analysis of the deposited data

How the results depend on the processing

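All 7 genes kept their direction under RLE scaling, no filter, the length offset, DESeq2 and with ctrl 5 and cold 7 left out together. Leaving out 1 library at a time turned Prx alone, to -0.025 without cold 7 (range -0.025 to 0.16). Ncmap then ranged over 2.98 to 3.75, and the number of the 7 called over 0 to 1. Genes called higher, 415 with all libraries, ranged over 0 to 929 and those called lower, 101, over 0 to 161 with 1 library left out. Without the filter 696 were called higher and 228 lower, with DESeq2 1133 and 297, and with ctrl 5 and cold 7 left out 1145 were called higher. The length offset left 58 called lower. Erbb3, Nrtn and Gfra1 missed the threshold without cold 12, cold 16, ctrl 6 or ctrl 10, and Pllp there and with the length offset. Mal, Gjb1 and Sorcs2 passed by DESeq2 and without ctrl 5, as did Scn7a by DESeq2. The causes were not tested. Depth limits Sox10 and Gfra3, at 8 to 21 counts a library. No paired analysis was possible because the mouse numbers differ between the groups.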
